A study of Drosophila melanogaster with 2 samples.

Results

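Far-intron peaks are binding sites of the homeodomain protein OdsH that lie inside genes, outside every exon, and more than 5 kb from any annotated start site of transcription. They were chosen by position alone: a thresholded dm6 peak was kept when its summit, the base of highest signal, lay in a gene, in no exon of any gene, and over 5000 bp from the nearest start of any transcript. This held for 913 of 7223 thresholded peaks (12.6%). Transposable elements were not counted as genes. The measurements are from chromatin immunoprecipitation with sequencing in whole Drosophila melanogaster larvae at the wandering stage of the third instar. The larvae, of the line OdsH-GFP, stably carried a transgene of OdsH fused with GFP at the C-terminal end. Chromatin was precipitated with anti-GFP, although the antibody field of the labels names OdsH. All larvae belonged to 1 group, sampled in 2 biological replicates, and no second condition exists to compare it with. Age was unknown and sex was not collected. How much of the OdsH locus the transgene carries, which cells expressed it, and whether larvae were pooled is not stated by the sources used here. Whole larvae hold many tissues, and binding in few cells and weak binding in many cannot be told apart.

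Introns far from start sites hold many of the enhancers of developmental genes in flies. An enhancer is a stretch of DNA to which transcription factors bind and from which a gene's transcription is regulated over a distance. Long introns are common in genes of development and of the nervous system. Homeodomain proteins contact DNA through a helix that reads a short core, TAAT, which is common in sequence rich in A and T.

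The sequences of the 8 strongest far-intron peaks on X, 2L, 3L, 3R and 4 are given first, since they show what the site with the highest signal in each intron looks like. Each runs 50 bp to either side of the summit, on the plus strand of the Release 6 reference (dm6), in lower case with TAAT or its reverse complement ATTA in capitals. The intron belongs to the gene named.
CG32486, chr3L:3060747-3060847: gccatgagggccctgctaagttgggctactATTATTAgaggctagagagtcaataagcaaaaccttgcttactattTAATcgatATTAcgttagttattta
Eip75B, chr3L:18011871-18011971: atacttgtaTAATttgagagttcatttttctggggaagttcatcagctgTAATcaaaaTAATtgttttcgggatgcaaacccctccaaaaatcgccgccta
CG13917, chr3L:1591822-1591922: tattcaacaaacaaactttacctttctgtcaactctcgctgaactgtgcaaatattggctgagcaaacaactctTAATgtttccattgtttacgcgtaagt
Su(Tpl), chr3L:19903233-19903333: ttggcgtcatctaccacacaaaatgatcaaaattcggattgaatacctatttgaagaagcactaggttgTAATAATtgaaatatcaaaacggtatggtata
CG42238, chr2L:21009472-21009572: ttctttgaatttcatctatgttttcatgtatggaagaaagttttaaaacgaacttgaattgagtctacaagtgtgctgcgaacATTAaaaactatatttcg
gpp, chr3R:6424047-6424147: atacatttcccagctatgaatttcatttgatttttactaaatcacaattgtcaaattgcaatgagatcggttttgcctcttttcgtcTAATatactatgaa
simj, chr3L:10682963-10683063: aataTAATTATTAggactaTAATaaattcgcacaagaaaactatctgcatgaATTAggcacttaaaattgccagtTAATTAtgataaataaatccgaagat
tara, chr3R:16236875-16236975: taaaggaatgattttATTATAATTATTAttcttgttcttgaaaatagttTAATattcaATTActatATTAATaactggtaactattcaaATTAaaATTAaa

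All 8 windows held at least 1 TAAT. So did 78.0% of the windows at all far-intron summits. Among windows of far intron sequence weighted to the A and T content of those summits, 79.4% did. Holding a TAAT is therefore common in such sequence, and its presence in all 8 does not show an excess. The window in CG13917 held 1, as did those in CG42238 and gpp, while that in simj held 7 and that in tara 10. The share of A and T ran from 62.4% in CG32486 and Eip75B to 85.1% in tara. In the windows of CG42238 and gpp the single TAAT lay toward an edge, away from the summit.

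A second set shows the homeodomain site in its longer forms. Of the 100 strongest far-intron peaks, 85 lay on the arms above, and 17 of these held, within 50 bp of the summit, either the palindrome TAATTA or a pair of TAAT cores facing each other across 2 or 3 bases, the arrangement that dimers of paired-class homeodomain proteins bind. The share of all 913 far-intron peaks with any of these sites is not given here. Taken singly, TAATTA was in 9.97% of the 913, and the facing pairs across 3 and 2 bases in 1.64% and 0.657%. Windows of far intron sequence weighted to the same A and T content held them in 11.2%, 1.64% and 1.16%. The 4 of the 17 with TAATTA or a facing pair closest to the summit are shown, marked in the same way.
kuz, chr2L:13571097-13571197: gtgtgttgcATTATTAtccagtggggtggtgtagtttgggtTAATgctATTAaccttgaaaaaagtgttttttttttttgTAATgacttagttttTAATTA
Grip, chrX:5981036-5981136: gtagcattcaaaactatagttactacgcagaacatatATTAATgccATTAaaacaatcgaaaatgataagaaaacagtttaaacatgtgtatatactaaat
Fur1, chr3R:25462729-25462829: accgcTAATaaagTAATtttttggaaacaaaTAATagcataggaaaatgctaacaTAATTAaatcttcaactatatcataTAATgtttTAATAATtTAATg
simj, chr3L:10678825-10678925: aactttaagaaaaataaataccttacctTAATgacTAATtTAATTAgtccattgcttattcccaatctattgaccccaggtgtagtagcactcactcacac

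The windows in kuz and Grip held a facing pair across 3 bases, and those in Fur1 and simj held TAATTA. The pooled signals of these peaks were 427 in kuz, 529 in Grip, 587 in Fur1 and 439 in simj, well under those of the first set. These matches are descriptions of the reference sequence and do not show which base was contacted.

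The strongest far-intron peak lay in an intron of CG32486. Signal here is the value that the authors' peak caller gave each peak. Its scale is unstated, so it serves to rank and describe peaks within a list. That peak spanned chr3L:3060598-3061027, had signals of 2424 pooled, 1084 for replicate 1 and 1369 for replicate 2, and ranked 8 of all thresholded peaks. The next, in Eip75B (FBgn0000568), a nuclear receptor gene induced early by the steroid hormone ecdysone, had 2072 pooled, 950 in replicate 1 and 1152 in replicate 2. It lay 12100 bp from the nearest start, in an intron of 32334 bp. In both replicates these peaks were far above the median far-intron peak, at 83.2 in replicate 1 and 101 in replicate 2. The peaks were picked on the signal pooled from the same replicates, so this is not independent of the choice.

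The peak in CG13917 had signals of 1469 pooled, 673 and 813. The peak where Su(Tpl), the gene of an elongation factor of RNA polymerase II, overlaps Mi-2, the gene of a nucleosome remodelling ATPase, had 1279 pooled, 572 and 721. The peak in CG42238 had 1222 pooled, 600 and 650. It lay in an intron of 26398 bp, and the nearest start site was that of a small nucleolar RNA gene, snoRNA:Me28S-C2789. A peak in gpp, which encodes a histone H3 methyltransferase, had 1172 pooled, 547 and 629. One in simj, which encodes a subunit of the NuRD complex, had 1057 pooled, 475 and 611. In each of these peaks replicate 2 had the higher value.

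The other peaks among the 20 strongest lay in genes of varied function. Raf, the kinase gene downstream of Ras, held one with 987 pooled (462 and 547), and tara, a gene of the trithorax group, one with 1044 (524 and 553). Others were in the nuclear receptor gene Hr4 (849 pooled, 391 and 479) and in Psc, a Polycomb group gene (938 pooled, 411 and 539). In genes of the Dpp pathway, the fly's BMP pathway, shn held 1 at 939 pooled (427 and 527) and Dad, which encodes an inhibitory Smad, 1 at 837 (415 and 413). The peak in Dad was the only one of the 20 in which replicate 1 had the higher signal. The zinc finger gene sbb held 3 of the 20, at 968, 846 and 846 pooled, and the rest lay in Ptp61F, Prp16, ush and the Wingless receptor gene fz.

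Far-intron peaks were weaker than thresholded peaks in general, by a small amount. Their pooled signal ran from 109 to 2424 with a median of 176 and quartiles of 133 and 278, against a median of 188 for all thresholded peaks. Medians were 192 for promoter peaks (within 500 bp of a start), 189 for intron peaks nearer than 5 kb, 187 for intergenic peaks and 165 for exon peaks. The median over that of all peaks was 0.936 in the pooled list, and 0.959 and 0.937 when replicate 1 or replicate 2 alone supplied the list. No test was made between these classes, since peaks are not replicates. Of the far-intron peaks, 58.5% had a signal under 200, against 54.5% of all thresholded peaks, and 68 had a signal above 500.

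The share of far-intron peaks was smaller among strong peaks than among weak ones. It was 5 of the 100 strongest thresholded peaks (95% Wilson interval 2.15% to 11.2%) and 8.50% of ranks 101 to 500 (34 of 400, interval 6.15 to 11.6). It was 14.1% of the ranks from 4001 to the last thresholded peak (455 of 3223, interval 13.0 to 15.4). In the relaxed pooled list, which includes background, it went on to 18.7% of the 10000 weakest peaks (interval 17.9 to 19.4), and 4767 of the 30000 relaxed peaks (15.9%) were far-intron. Intervals here and below cover counting error over peaks, windows or genes only; the depth of sequencing is unknown, since the files give no read numbers.

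The replicates found largely the same far-intron sites. Each replicate was represented by as many of its strongest relaxed peaks as there are thresholded peaks. By the same position rule, 878 of these were far-intron in replicate 1 (12.2%) and 934 in replicate 2 (12.9%). Of the 878, 744 (84.7%, interval 82.2 to 87.0) lay no more than 200 bp from one of the 934, and of the 934, 741 (79.3%, interval 76.6 to 81.8) lay that close to one of the 878. Of the 913 thresholded far-intron peaks, 737 (80.7%, interval 78.0 to 83.2) were among the strongest peaks of both replicates, against 82.2% of all thresholded peaks. This last share is not independent of how the peaks were thresholded, on agreement between these replicates.

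**Figure D1:**
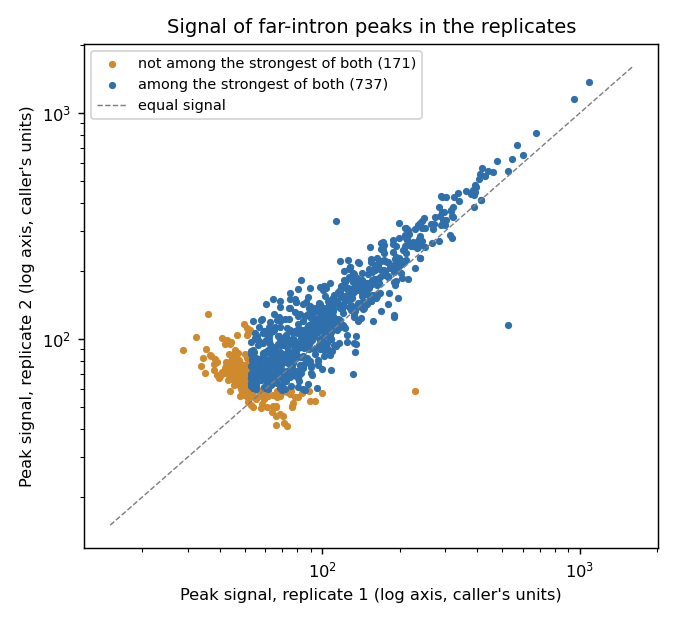
Signal of each far-intron peak in replicate 1 (x) and replicate 2 (y), in the caller's units on log axes, for the 908 peaks with a partner in both; blue marks the 737 peaks among the strongest of both replicates and the dashed line marks equal signal. Most points lie above the line, with 723 of 908 higher in replicate 2.

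Signal in replicate 2 was higher for 723 of the 908 far-intron peaks that had a partner in both replicates. The median log2 ratio of replicate 2 to replicate 1 was 0.28, with an SD over peaks of 0.39, against a median of 0.26 and an SD of 0.45 for all thresholded peaks. A partner was a relaxed peak with its summit within 200 bp. None was found for 2 far-intron peaks in replicate 1 and for 3 in replicate 2. Neighbouring peaks can share a partner: a weak peak in tara with a pooled signal of 147 took the 524 of its strong neighbour in replicate 1 and 115.1 in replicate 2.

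Sequence that could hold a far-intron peak made up 28.3 Mb, 21.1% of the 6 chromosome arms. It held 32.3 peaks per Mb, against 54.0 thresholded peaks per Mb over the arms as a whole, a ratio of 0.598. The same density was 75.6 per Mb in introns from 500 bp to 5 kb of a start, 30.9 in intergenic sequence and 173 within 500 bp of a start. Annotated transposable elements took up 9.51% of far intron sequence and held 2 of the 913 summits, in Ten-a and CG33298. Without them the density was 35.6 per Mb. Repeats are hard to map, and the part of mapping in these differences was not tested.

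Among the arms, 2L had the most far-intron peaks for its far intron sequence, at 40.1 per Mb (166 peaks), and X had 36.2 per Mb (194 peaks). The values were 33.2 on 3L (179 peaks), 28.6 on 3R (236 peaks) and 28.3 on 2R (138 peaks). Chromosome 4, which is small and largely heterochromatic, held 15 thresholded peaks but none in its 0.259 Mb of far intron sequence, of which 31.1% was annotated as transposable elements. Far-intron peaks were 16.3% of the thresholded peaks on X and from 10.5% to 13.7% on the arms of chromosomes 2 and 3. Median signals were close across these arms, from 167 on 3R to 193 on 2R.

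Peaks thinned out with distance from the start sites. Between 5 and 6 kb from a start there were 51.8 peaks per Mb, between 10 and 15 kb 38.3, between 20 and 30 kb 23.5, and beyond 30 kb 3.40 (20 peaks in 5.88 Mb). The replicates gave 49.4 and 55.9 in the nearest bin, and 3.06 and 3.23 in the farthest. The median distance was 9006 bp for the summits and 12384 bp for far intron positions, and the farthest summit was 50477 bp from a start. Signal did not follow this order: the median was 176 between 5 and 6 kb and 190 beyond 30 kb.

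**Figure D2:**
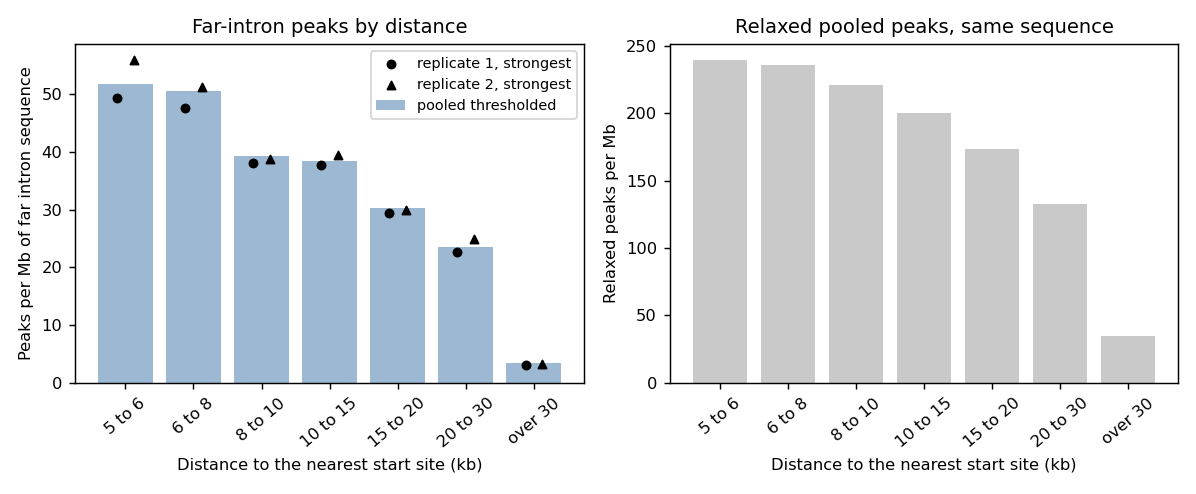
Left, far-intron peaks per Mb of far intron sequence by distance to the nearest start site in kb, for the pooled thresholded list (bars) and for the strongest peaks of each replicate (points); right, relaxed pooled peaks per Mb of the same sequence. Both fall with distance, from 51.8 to 3.40 for the thresholded and from 239 to 34.5 for the relaxed peaks.

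The relaxed pooled list thinned out as well, from 239 peaks per Mb between 5 and 6 kb to 34.5 beyond 30 kb. The thresholded peaks were 21.7% of the relaxed ones in the nearest bin and 9.85% in the farthest. Transposable elements took up 7.92% of the nearest bin and 12.4% of the farthest. Outside them the densities were 56.3 and 3.88 per Mb.

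Summits were in a first intron more often than far intron sequence was, also at equal distance from a start. The smallest intron of the host that held the summit was a first intron for 430 of the 913 (47.1%, interval 43.9 to 50.3), while 24.7% of far intron positions were in a first intron. Another 295 summits (32.3%) were in a second intron, and 188 (20.6%) in a later one, where 45.6% of positions lay. Both shares fell with distance. Between 5 and 6 kb from a start 63.2% of summits were in a first intron (interval 55.3 to 70.4) and 39.5% of positions, and between 20 and 30 kb 26.2% (interval 17.0 to 38.0) and 14.8%. Positions weighted to the distances of the summits gave 30.5%, against the 47.1%. The host introns had a median length of 18748 bp and a range from 311 to 126467 bp. At far intron positions the median length of the intron was greater, 21400 bp. The median distance to an end of the intron was 4843 bp for the summits and 5013 bp for far intron positions.

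The nearest start site was one of a host gene for 542 peaks (59.4%, interval 56.1 to 62.5) and one of another gene for 371. The same share over far intron positions is not given here, so the part of gene layout in it is not known. The cut of 5 kb was set by the rule, and the few peaks nearest to it cannot show whether signal changes there. The 5 peaks just inside it, from 5003 to 5038 bp, had signals from 129 to 501, and the 5 just outside, from 4973 to 4997 bp, had signals from 116 to 724.

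Distances to neighbouring summits were taken for far-intron peaks only. The same shares over all thresholded peaks are not given here, so whether those below are particular to this class is not known. Another thresholded summit lay within 1 kb for 215 (23.5%, interval 20.9 to 26.4) and within 5 kb for 584 (64.0%, interval 60.8 to 67.0). For 94 (10.3%) it lay within 250 bp, a spacing inside the width of 1 peak, whose median was 444 bp. Such close pairs may count 1 site as 2 peaks, and among the 20 strongest this held for the peaks in simj, tara, shn, Psc and Dad. With summits within 200 bp of a stronger one left out, 897 peaks stayed. The smallest gap was 199 bp, so this cut could remove few of the close pairs. Those in simj, tara, shn and Psc, from 201 to 206 bp apart, were not removed by it.

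The peaks were spread over many genes, and a few genes held a run of them. At least 1 kb of far intron sequence was found in 1422 genes, and 421 of them (29.6%) held a far-intron peak. This is the share against which the gene lists below are read. The replicates alone gave 399 and 420 genes. A peak inside 2 or more genes, as 55 were, counted for each of these genes. With 1 main host for each peak there were 407 distinct hosts. Of the 421, 201 held 1 peak, 220 held 2 or more, 45 held 5 or more and 5 held 10 or more. Of the 421, 410 were protein-coding, and 19 peaks had no protein-coding host, among them 3 in the host gene of the let-7 microRNA cluster, lncRNA:let7C.

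Genes with more far intron sequence more often held a peak, but held fewer peaks per Mb. Of genes with 1 to 5 kb of it, 14.5% held a peak (65 of 449), and of those with 50 kb or more, 51.2% (62 of 121). The densities were 67.8 and 19.7 per Mb, with a shared peak and its sequence counted for every gene that holds them. The median amount was 16.3 kb in genes with a peak and 7.53 kb in genes without.

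Tet (FBgn0263392), which encodes a dioxygenase of the TET family, held the most, 17 peaks in 65.8 kb. Their pooled signals ran from 109 to 495, and the strongest had 210 in replicate 1 and 290 in replicate 2. Snoo (FBgn0085450), which encodes a corepressor of the Ski and Sno family, held 14 in 75.3 kb, the strongest at 641 (291 and 363). The adhesion gene kirre (FBgn0028369), required for the fusion of myoblasts, held 13, but in 226 kb, the strongest at 633 (287 and 350). These 3 genes held many peaks of moderate signal.

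The gene tara (FBgn0040071) held 12 peaks in 16.1 kb and Mnt (FBgn0023215), which encodes a repressor that pairs with Max, 9 in 8.93 kb, so both were crowded for their size. Close pairs add to these counts: in tara the summits at 16236925 and 16237127 lay 202 bp apart. The zinc finger gene sbb (FBgn0285917) held 10 in 35.6 kb, all in its first intron of 49364 bp, with signals from 178 to 968. In replicate 1 they ran from 88.0 to 439 and in replicate 2 from 95.2 to 553. Of genes with 8 or 9, Eip74EF (FBgn0000567), an Ets factor gene induced by ecdysone, had its strongest at 483 (211 and 280), SKIP at 513 (199 and 325), the RhoGAP gene cv-c at 501 (251 and 256), and heca, a gene of imaginal cells, at 456 (187 and 262).

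**Figure D3:**
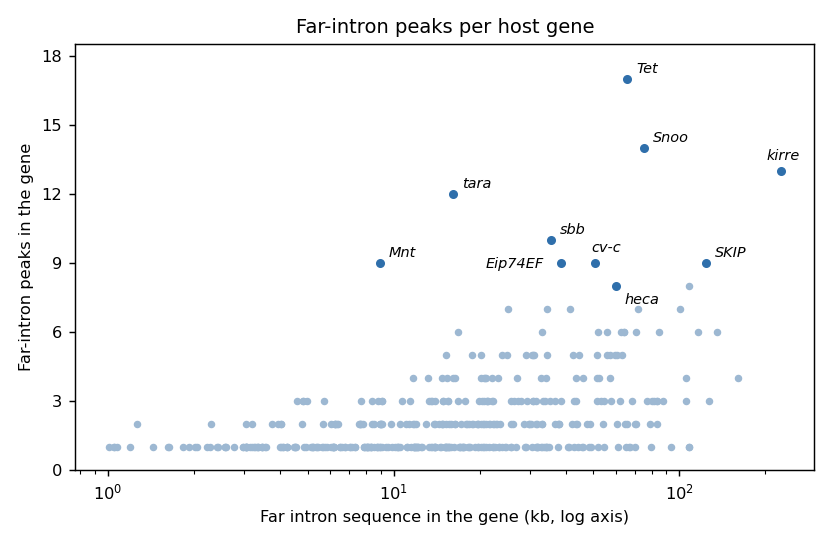
Number of far-intron peaks (y) against the amount of far intron sequence in kb (x, log axis) for each of the 421 genes that hold both; the 10 genes with most peaks are named. Mnt and tara have 9 and 12 peaks in 8.93 and 16.1 kb, while kirre has 13 in 226 kb.

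OdsH itself held 2 far-intron peaks in its own intron of 20232 bp. The one with its summit at 17802908 on X had a signal of 711 pooled, 289 in replicate 1 and 430 in replicate 2, and the one at 17807161 had 454, 214 and 260. The neighbouring paralog unc-4, known for its role in motor neurons, had 3.19 kb of far intron sequence and no far-intron peak. Whether the transgene adds copies of the OdsH intron to the genome is not stated by the sources used here. The part of the transgene in the OdsH peaks was not tested.

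Listed genes of the ecdysone response, the hormone pathway that drives metamorphosis, often held far-intron peaks. Of the 15 listed genes with far intron sequence, 12 held one (80.0%, interval 54.8 to 93.0). Eip74EF held 9, Eip75B 7, and tai, which encodes a coactivator of the ecdysone receptor, 5. The hormone's receptor gene EcR held 2 and the early factor gene br 2, and svp, crol and Eip93F held none. All genes with as much far intron sequence, weighted to the sizes of these 15, gave 37.7%. The replicates alone gave 11 and 12 of the 15.

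In Hr4 there were 3 peaks, at 849 pooled (391 and 479), 541 (284 and 271) and 294 (122 and 170). In tai the strongest had 717 pooled, 293 in replicate 1 and 426 in replicate 2. The peaks in Eip75B other than the strongest were far weaker than it, the next at 389 (170 and 221).

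Genes of receptors and signalling proteins held them often too, in 26 of 39 (66.7%, interval 51.0 to 79.4), against 30.3% for all genes of these sizes. The Wingless receptor genes fz and fz2 held 7 and 4, with the strongest at 818 (385 and 458) and 749 (388 and 384), ds, an atypical cadherin gene of the Hippo and planar polarity pathways, 5, and drl, a receptor gene of the Ryk family, 3. Of these peaks, that of fz2 was nearly equal in both replicates. The replicates alone gave 25 and 26 of the 39 genes.

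Zinc finger and BTB transcription factor genes held one in 13 of 23 cases (56.5%, interval 36.8 to 74.4), against 35.1% by size. The members with most were sbb with 10, bab1, a gene of leg and ovary patterning, with 6, and ush, a GATA cofactor gene, and crp with 5 each. Of these, crp encodes a basic helix-loop-helix protein and not a zinc finger or BTB protein, but it was on the list and is among the 13. On the list of chromatin regulators, 11 genes had 1 kb of far intron sequence, and 7 of these held a peak (63.6%, interval 35.4 to 84.8) against 20.1% by size, with 8 and 6 in the replicates. Within this list jing held the most, with 6, followed by trx, a histone methyltransferase gene of the trithorax group, with 3, the strongest at 711 (303 and 427), then Mi-2 and Psc.

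The list of homeobox genes, the family of OdsH, had a share close to that of all genes. Of its 42 genes with far intron sequence, 12 held a peak (28.6%, interval 17.2 to 43.6), and all genes of these sizes gave 28.8%. Its density was higher, at 46.3 far-intron peaks per Mb of far intron sequence, against 32.7 for all genes with at least 1 kb of it. The Hox cofactor gene hth held 7, the strongest at 324 (143 and 183), the Hox gene Antp 6, inv, the paralog of engrailed, 3, and OdsH 2. RNA-binding protein genes held one in 11 of 21 (52.4%, interval 32.4 to 71.7, 39.5% by size), with 6 in heph, a polypyrimidine tract binding protein gene, and 3 each in brat and pum, which encode repressors of translation, and 2 in cpo. By density the RNA-binding list lay below all genes, at 19.7 far-intron peaks per Mb against 32.7, so the order depends on the measure.

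The listed ion channel and neurotransmitter receptor genes rarely held far-intron peaks. Of 44 with far intron sequence, at a median of 21.3 kb each, 2 held a peak (4.55%, interval 1.26 to 15.1), against 35.0% for all genes of these sizes. Those 2 of the list were the potassium channel gene Shal, at 350 pooled (167 and 187), and the acetylcholine receptor gene nAChRalpha6, at 174 (64.9 and 109). The replicates alone gave 2 and 3 genes. Relaxed peaks were sparse there as well, in 17 of the 44 genes (38.6%) and at 34.7 per Mb, against 56.7% and 171 per Mb for all genes. They were dense in the lists with high shares. The densities were 441 per Mb for ecdysone response regulators, 414 for receptor and signalling genes, 381 for zinc finger and BTB genes and 655 for chromatin regulators. The remaining lists shown ran from 139 per Mb for axon guidance and adhesion genes to 345 for muscle structure genes.

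Genes of axon guidance and adhesion, which also have long introns, held one in 17 of 62 (27.4%, interval 17.9 to 39.6, 38.0% by size). The members with most were kirre with 13, Fas3, an adhesion gene, with 5, and mew, an integrin gene, and Ten-a, a teneurin gene, with 4 each. Genes of the cytoskeleton and of cell polarity held one in 13 of 30 (43.3%, interval 27.4 to 60.8, 28.3% by size), led by pyd, which encodes a ZO-1 homologue, with 5, and kst, cno and rols with 2 each. Of 11 muscle structure genes 2 did (18.2%, interval 5.14 to 47.7, 31.1% by size), Zasp52 with 4 and Fhos with 1.

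**Figure D4:**
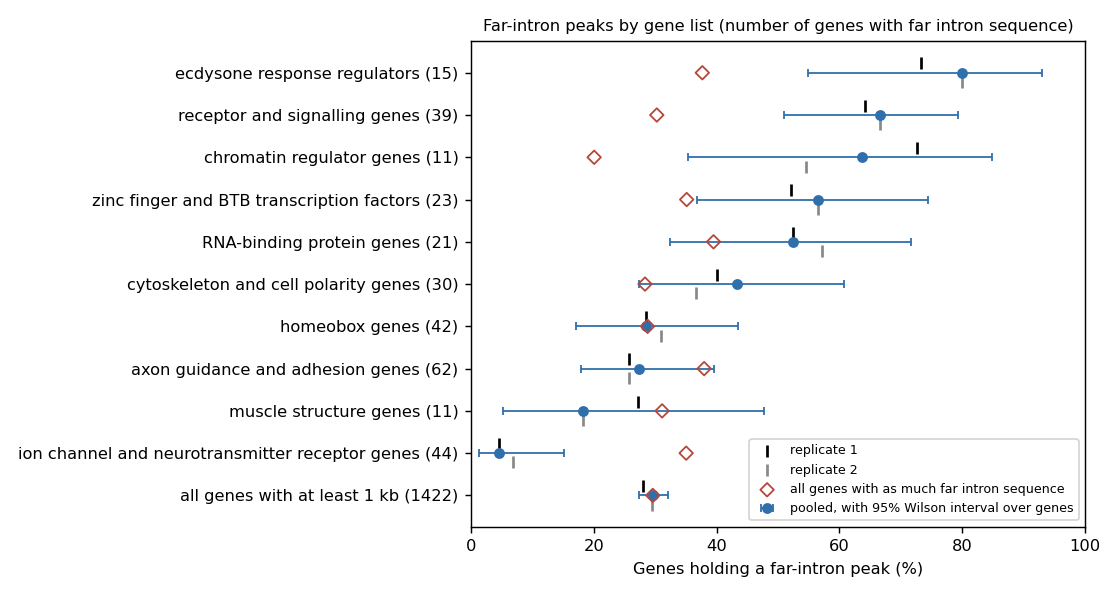
Percent of genes holding a far-intron peak in each list, with the number of genes that have far intron sequence in brackets; points are the pooled list with 95% Wilson intervals over genes, ticks the replicates, diamonds all genes weighted to the same amounts of far intron sequence. Ecdysone response regulators are at 80.0% and ion channel and neurotransmitter receptor genes at 4.55%, against 29.6% for all genes.

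The lists do not hold every gene of their kind, and their shares are shares of the listed genes. Genes left off that held far-intron peaks, found after the values were seen, include tara with 12 peaks, gpp with 5 and simj with 4 among genes of chromatin proteins, NK7.1 with 2 among homeobox genes, and Ca-beta, a calcium channel subunit gene, with 2, the stronger at 488. Genes left off that held none were not counted. No test was made on the lists, which were chosen with earlier results of these data known. How open the chromatin of these genes is in whole larvae was not measured in the files used, and its part in the shares was not tested.

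Summits were rich in A and T. The 101 bp at the far-intron summits held 67.2% A and T (SD 8.07 over 913 summits), against 56.1% and 56.2% in windows of equal size 400 bp to either side and 59.7% over all such windows of far intron sequence. In 643 of 913 cases (70.4%) the summit was above both of its flanks. Promoter summits held 64.2%, intergenic summits 67.8% and nearer intron summits 66.2%. The 229 strongest far-intron summits held 69.6% and the others 66.4%.

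**Figure D5:**
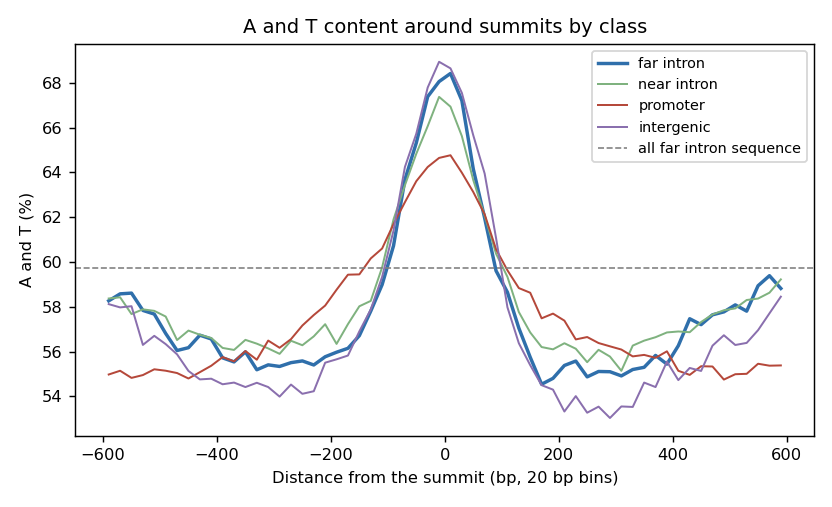
Mean A and T content in bins of 20 bp (y) by distance from the summit in bp (x) for far-intron, nearer intron, promoter and intergenic peaks; the dashed line is the mean over all far intron sequence, 59.7%. The far-intron curve peaks at 68.4% at the summit and dips below the dashed line on either side, to 54.5% at 170 bp.

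The homeodomain core TAAT was found in 712 of the 913 windows (78.0%, interval 75.2 to 80.6). It was in 54.0% and 56.7% of the flanks, and in 64.7% of the 274916 windows of far intron sequence. Among windows weighted to the same A and T content as the summits it was in 79.4%, which lies inside the interval. Sites of TAAT numbered 1.01 and 1.02 per peak in the 50 bp on the lower and the higher side of the summit, and 0.51 and 0.45 per peak between 200 and 250 bp away.

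TAATTA, a longer homeodomain site, was in 9.97% of summit windows (interval 8.19 to 12.1), in 5.70% and 6.24% of flanks, and in 11.2% of windows of equal A and T content. TAATTG was in 11.6% (interval 9.69 to 13.9), against 12.8% at equal content. The facing pair of TAAT across 3 bases was in 15 windows (1.64%) against 1.64% at equal content, and that across 2 bases in 6 (0.657%, interval 0.302 to 1.43) against 1.16%. TGATNNAT, bound by Exd together with Hox proteins, was in 8.54% against 8.91%. TTTATG, a site of Abd-B and Caudal, was in 12.7% against 15.5%, and below its flanks, at 14.0% and 14.8%.

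Among the other motifs, searched on both strands, some lay above windows of equal A and T content. The GATA factor site TGATAA was in 11.2% (interval 9.29 to 13.4) against 8.605%, while AGATAA was in 8.54% against 8.24%. The E-boxes CATATG and CAGCTG, sites of basic helix-loop-helix proteins, were in 5.04% (interval 3.798 to 6.66) against 3.10% and in 3.61% (interval 2.59 to 5.03) against 1.93%, and CACGTG was in 0.438% against 0.612%. GAGAG, the site of the GAGA factor, was in 11.1% (interval 9.19 to 13.3) against 8.27%, but below its flanks, at 14.8% and 13.7%, and near the 11.5% of all far intron windows. CAGCTG was likewise below its flanks, at 4.38% and 4.27%, so for both the order depends on the comparison.

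Sites of 2 promoter factors were in smaller shares of these summits than of promoter summits. TATCGATA, the site of DREF, was in 1 window (0.110%, interval 0.0193 to 0.618) and in 2.39% of promoter summits, and CGATA, the site of BEAF-32, was in 10.3% and 18.0%. Low shares were not particular to far introns. Nearer intron and intergenic summits held TATCGATA in 0.162% and 0.0888%, and CGATA in 11.4% and 9.41%. At equal A and T content the shares were 0.317% and 10.6%. The DREF site contains that of BEAF-32, so both can be one match. The TATA box sequence, TATAAA, was in 23.4% (interval 20.8 to 26.3), against 20.4% of promoter summits, 10.2% and 9.64% of the flanks and 21.9% at equal A and T content. No factor other than OdsH was measured, so these shares say nothing of what else was bound.

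The other motifs lay close to windows of equal A and T content, or were rare. CACACA was in 7.01% against 6.76%, AAACAA, a forkhead site, in 22.7% against 22.9%, GCCAT, of Pho, in 13.1% against 14.0%, and ACAATG, of Sox proteins, in 5.91% against 6.34%. TGGGAA, of Suppressor of Hairless, was in 6.13% against 5.23%, GGAATG, of Scalloped, in 3.29% against 3.67%, AGGTCA, of nuclear receptors, in 2.74% against 2.12%, and CAGGTA, of Zelda, in 2.08% against 1.64%. TGAGTCA, of AP-1, was in 0.657% against 0.648%, and CAGGAAG, of Ets proteins, in 2 windows (0.219%, interval 0.0601 to 0.795) against 0.684%.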

How the data were processed

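The deposited files are narrowPeak lists of 2 replicates, in which each peak has a signal value from the authors' caller. Per the file listing deposited with the samples, lists were called for each replicate and for both pooled against a control library, and the thresholded list was derived from them on the irreproducible discovery rate. Neither caller nor aligner is stated by the sources used here. Chromatin was sonicated to 200 to 800 bp, per the labels. Depth is unknown. The dm3 lists and the control were not analysed here.

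Summits (1-based) were placed on Ensembl release 115 genes (BDGP6, dm6), without transposable elements; start sites were those of all transcripts. The main host was the shortest protein-coding gene holding the summit, else the shortest gene. Far intron sequence is every position that meets the rule, sampled every 100 bp for introns and distances. Genes needed 1 kb of it to be counted. Windows of 101 bp were scanned for 26 motifs in the RefSeq Release 6 sequence; background windows tiled far intron sequence and were weighted to the summits' A and T content. Gene lists (11 lists, 634 entries, 16 matched through a synonym, 5 unmatched) were likewise weighted by amount of far intron sequence, in 5 classes. The result of 1 list is not reported here. Named genes were the hosts of the 20 strongest peaks, the 10 genes with most peaks, the 4 members with most of each list, OdsH and unc-4; other genes named for small counts or as contrasts within a list were chosen after their values were seen. The members and lists were chosen with earlier results of these data known. Leaving transposable elements out of the genes was decided after the counts with and without them were seen, and the weighting by amount of far intron sequence, the relaxed peaks and transposable element shares and first intron shares by distance were added after values were seen. With 1 group there was no test. Alternatives covered distance, start sites, peak set, summits, tolerance and window, and each replicate alone. Position and motif functions were tested on simulated data. Python 3.11.15, numpy 2.4.6, pandas 2.3.3, statsmodels 0.14.6 and matplotlib 3.10.9 were used.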

Additional observations from a re-analysis of the deposited data

How the results depend on the processing

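Of 97 alternative values, 54 stayed close to the reported one, and 43 moved. Close meant within 1.5 times for a count, inside the 95% Wilson interval for the share strong in both replicates, and within 1 SD between the replicates for the rest. The distance was the choice that changed the number of peaks most, from 913 to 1673 at over 2 kb and 389 at over 10 kb. Counting gene starts only gave 1492 peaks, and the stronger 50% of the thresholded list 419. Counting transposable elements as genes, an alternative added after seeing the data and after both counts were known, gave 811. The density ratio of 0.598 became 0.749 and 0.419 at those distances, 0.639 with protein-coding starts only, 0.816 with gene starts only, 0.549 in the stronger 50% and 0.689 with transposable elements as genes. It stayed below 1 in each. The signal ratio of 0.936 became 0.955 at 2 kb, 0.981 with gene starts and 0.976 in the stronger 50%. The share strong in both replicates became 99.8% in the stronger 50% and 75.7% at a tolerance of 100 bp. The share in a first intron became 53.6% and 35.7% at 2 and 10 kb, 46.0% with protein-coding starts, 51.0% with gene starts, 48.7% in the stronger 50%, 47.9% with whole intervals outside exons and 46.1% with transposable elements as genes. The share of genes with a peak became 28.5% and 25.3% at 2 and 10 kb, 34.0% with gene starts, 17.9% in the stronger 50% and 31.6% with transposable elements as genes. A and T content became 68.4% in the stronger 50%, and 68.1% and 64.6% with 25 and 100 bp to either side of the summit. TAAT became 76.9% with gene starts, 80.9% in the stronger 50%, and 59.8% and 92.0% with those windows. TAATTA became 11.8% at 10 kb, and 5.15% and 16.3% with those windows. Shorter windows hold fewer words by construction; other causes were not tested.

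With each replicate left out, values ran from 878 to 934 for the number of peaks, 0.575 to 0.612 for the density ratio, 0.937 to 0.959 for the signal ratio and 45.8% to 46.4% for first introns. They ran from 28.1% to 29.5% for genes with a peak, 66.3% to 67.2% for A and T, 77.0% to 78.4% for TAAT and 9.23% to 10.7% for TAATTA. No paired analysis was possible because there is 1 group. The files give no read numbers, so the effect of depth could not be examined, and the pooled list is made from the same replicates.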

Other observations

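All 634 words of 6 letters held by at least 40 far-intron summits were set beside windows of equal A and T content, after the values were seen and with no test. The word with the highest ratio, CAGTGC, was in 54 summit windows (5.91%, 95% Wilson interval 4.56 to 7.64), against 2.77% of those windows. ATACCC was in 60 (6.57%, interval 5.14 to 8.37) against 3.20%. The shorter word CAGTG was in 16.9% of far-intron summits (interval 14.6 to 19.4), against 10.5% at equal A and T content. Over all windows of far intron sequence it was in 14.6%, near the lower end of that interval. The 229 strongest far-intron summits held it less often, at 13.1%, than the others, at 18.1%. CAGTG was in 19.4% and 19.1% of the far-intron summits of the replicates alone. Its flanks gave 16.8% and 13.9%, the first inside that interval and the other under it. Promoter summits held it in 21.6% of cases and nearer intron summits in 20.1%.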
